A study of Homo sapiens with 20 samples.

Results

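The APOBEC3 genes encode cytidine deaminases, enzymes that turn cytosine into uracil in single-stranded DNA. The family has 7 members in human cells, APOBEC3A, APOBEC3B, APOBEC3C, APOBEC3D, APOBEC3F, APOBEC3G and APOBEC3H, and all 7 were found among the 20314 genes of the deposited count table. Of these, 6 were found by gene symbol, whereas APOBEC3A had no symbol there and was found by its Ensembl identifier. Counts were high enough for a test in 6 of the 7, all but APOBEC3A. The measurements were mRNA counts in 20 libraries of U2-OS, a cell line from a human osteosarcoma, with 5 libraries in each of 4 groups. Untreated cells were compared with cells taken 1.5 h (90 minutes) after ionizing radiation (IR) of 20 Gy, with cells taken 7 days after 20 Gy, and with non-irradiated cells in which NFKBIA, the gene of the NF-κB inhibitor IκBα, was depleted by shRNA. The methods describe puromycin-selected clones and daily doxycycline for inducible shRNAs, and scrambled shRNA with doxycycline as the usual control. For the untreated cells, the labels mention no vector and no doxycycline. The effects of NFKBIA depletion, vector, drug and clonal selection therefore cannot be told apart here.

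APOBEC3 enzymes restrict retroviruses and retroelements by deaminating their complementary DNA, and the uracils that result are either excised by UNG and the base excision pathway or copied into mutations. APOBEC3B is the member found mainly in the nucleus, and it is a known source of C-to-T and C-to-G mutations in tumours. APOBEC3D, APOBEC3F, APOBEC3G and APOBEC3H are known for acting on HIV-1 that lacks Vif, while APOBEC3C is a weaker restriction factor. Transcription of APOBEC3B is known to be held down by the p53 and DREAM repressor pathway and to be raised by NF-κB signaling, and several other members are known interferon-stimulated genes. The genes lie in 1 tandem cluster on chromosome 22, between CBX6 and CBX7, all on the plus strand in GENCODE 29.

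The members are copies of each other, and this bears on how reads of 100 bases were assigned to them. The stretch below codes for the part of the active site with the cysteines that bind zinc, read from the longest reading frame of each gene's GENCODE 29 coding transcripts, 5′ to 3′. The last such stretch is shown where the frame holds 2 (APOBEC3B, APOBEC3D, APOBEC3F and APOBEC3G), and capitals mark the codons of both cysteines.
APOBEC3A: tggagccccTGCttctcctggggcTGT
APOBEC3B: tggagccccTGCttctcctggggcTGT
APOBEC3C: tggagccctTGCccagacTGT
APOBEC3D: tggagccctTGCccagagTGT
APOBEC3F: tggagccctTGCccagagTGT
APOBEC3G: tggagccccTGCttcagcTGT
APOBEC3H: tggagccccTGCtcctccTGT
APOBEC3A and APOBEC3B had the same 27 bases there, and APOBEC3D and APOBEC3F the same 21 bases. Over the whole coding transcripts, 26.3% of the distinct 100-base words of APOBEC3B also occurred in another member, of which most came from APOBEC3A (19.7%), then APOBEC3D (5.03%) and APOBEC3F (1.61%). The share was 23.6% for APOBEC3A, 12% for APOBEC3F, 11.3% for APOBEC3G and 8.73% for APOBEC3D. APOBEC3C and APOBEC3H shared none (0%) with the other members, and genes outside the family were not searched. Levels of the other members are uncertain to the extent that the authors' counting could split or drop shared reads. The model of APOBEC3A also overlapped that of APOBEC3B and the antisense gene APOBEC3B-AS1, and a further gene model overlapped APOBEC3C and APOBEC3D.

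APOBEC3H had the largest log2 fold change of the members at 7 days after irradiation, and its promoter is shown for that reason. It was the 1 member of 7 with an entry in the RefSeq promoter table, which holds 250 bases before and 50 bases after each start (GRCh38.p14, chr22:39096994-39097293, plus strand).
APOBEC3H promoter: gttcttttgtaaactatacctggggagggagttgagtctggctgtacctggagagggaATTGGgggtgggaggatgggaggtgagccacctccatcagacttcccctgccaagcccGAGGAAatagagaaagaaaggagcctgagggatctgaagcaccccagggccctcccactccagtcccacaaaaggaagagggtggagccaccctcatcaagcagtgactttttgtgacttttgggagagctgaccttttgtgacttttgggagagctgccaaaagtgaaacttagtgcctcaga
Of 10 motifs searched on both strands, capitals mark the 2 that matched, a PU box (GAGGAA, 134 to 129 bases upstream of the start, in 27.9% of 35116 promoters of this length) and a CCAAT box on the minus strand (in 34.6%), which did not overlap. The letters of the interferon-stimulated response element (ISRE, in 3.57% of promoters), the interferon-gamma-activated site (GAS, TTCNNNGAA, 7.66%), the AP-1 site (TGANTCA, 7.71%), the E2F site (TTCCCGC, 6.55%), the CHR element (TTTGAA, 15.2%) and the TATA box (TATAAA, 11.5%) were not in this window. Nor were those of an NF-κB site (5.91%) or a p53 half-site (6.63%).

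Libraries held 22535659 to 40390961 counts. Levels are given as CPM, a gene's count scaled to the same TMM-adjusted total in every library, and values per length are CPM per kilobase of deposited gene length (RPKM). NFKBIA mRNA was 31.3 ± 7.25 CPM in untreated and 12.1 ± 0.667 CPM in knockdown cells (SD, n = 5 each), so that the knockdown group carried less of its target. The osteoblast lineage markers summed to between 2778 and 4793 CPM in all libraries, with SP7 and IBSP at no more than 3 counts, and 16 lymphoid, myeloid and endothelial markers summed to between 5.68 and 16.4 CPM. In untreated cells SPARC and COL1A1 made up most of the osteoblast sum, at 2137 and 1974 CPM on average. RUNX2, the next highest of that list, was at 116 CPM, and BGLAP and COL1A2 were at 1.15 and 0.411 CPM. Untreated replicate 5 stood apart: 31.6% of tested genes differed by over 0.5 on the log2 scale from the mean of the other untreated libraries, against 2.2 to 16.4% for every other library within its group. It had the lowest total, and by the lane numbers in the labels it was the 1 untreated library on lane 3, the other 4 being on lane 2. Every link between untreated and other libraries within a lane therefore rests on it. Lane 3 held 3 libraries of the 1.5 h group, lane 4 held 2 of the 1.5 h and 2 of the 7 day group, lane 5 held 3 of the 7 day and 1 of the knockdown group, and lane 6 held 4 knockdown libraries. The study calls the untreated and irradiated quintuplicates biological replicates, the labels do not say whether they came from separate cultures, and the p-values measure the spread between these libraries. In bulk RNA, fewer cells expressing a gene and less of its mRNA per cell cannot be told apart.

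In untreated U2-OS cells the family was carried by APOBEC3B and APOBEC3C. Per length, the mean level was 70.7 ± 11.6 RPKM for APOBEC3B, 39.4 ± 7.65 for APOBEC3C, 5.7 ± 1.04 for APOBEC3F, 2.03 ± 0.29 for APOBEC3D, 0.58 ± 0.079 for APOBEC3H and 0.0758 ± 0.0286 for APOBEC3G (SD, n = 5). Each of these levels lay above the next in every untreated library, and the order at 1.5 h post-IR was the same. The gene length deposited for APOBEC3G, 5496 bases, is the longest of the members, while its coding transcripts held 1735 distinct 100-base words. The RPKM of APOBEC3G and its share of the pool may therefore be too low. APOBEC3A gave 1 count in 1 untreated library and 0 in the other 4, then 1, 2, 1, 0 and 0 counts at 1.5 h, 2 counts in 1 library and 0 in the other 4 at 7 days, and 0 in all 5 knockdown libraries. All of these lie under a floor of 3 counts per library, and neither a fold nor a test is given for it. In replicate 5, APOBEC3C (150 CPM) and APOBEC3F (24.4 CPM) were above, and APOBEC3B (103 CPM) below, all other untreated libraries. Without it the untreated means were 142 ± 15.3 CPM for APOBEC3B, 102 ± 1.69 for APOBEC3C and 17.0 ± 0.598 for APOBEC3F (SD, n = 4).

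**Figure D1:**
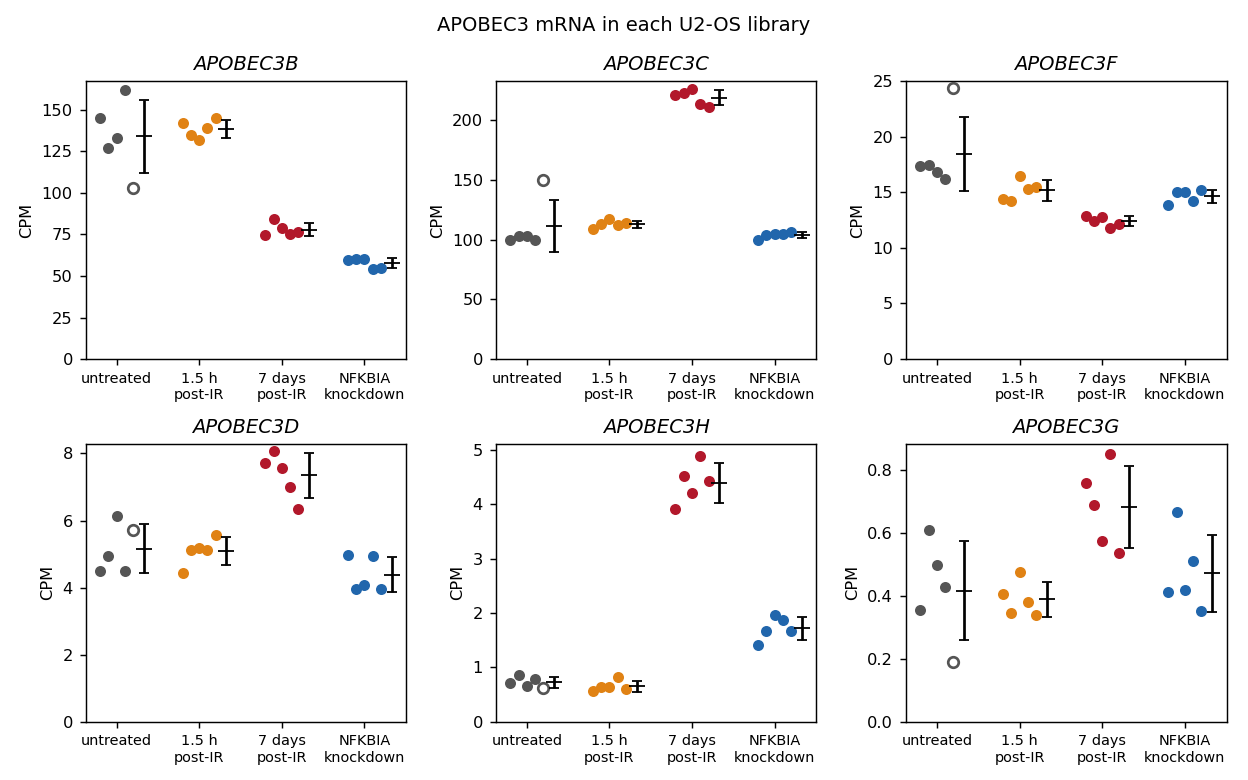
Levels in CPM (linear axes from 0) of 6 APOBEC3 genes in each of the 20 libraries, with untreated replicate 5 as an open circle and the group mean and SD (n = 5) as a bar to the right of the points. APOBEC3B was lower at 7 days post-IR and in knockdown cells, APOBEC3C was higher at 7 days, and APOBEC3H was higher in both.

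At 7 days after irradiation, when the study describes U2-OS cells as senescent, the family moved in opposite directions. APOBEC3C mRNA doubled to 219 ± 6.33 CPM and APOBEC3H mRNA rose about 6-fold from a low level, while APOBEC3B fell to 77.9 ± 3.89 CPM. APOBEC3D and APOBEC3G also passed the test as higher, and APOBEC3F as lower. A gene was called when the edgeR quasi-likelihood test gave a Benjamini-Hochberg adjusted p under 0.05 and the log2 fold change exceeded 0.5 in size. By this rule 4 of the 6 tested members were higher and 2 lower, where 31.1% of all 14992 tested genes were called (16.7% higher, 14.4% lower). In 5 of the 6 the libraries of both groups did not overlap, as in 44.8% of all tested genes. The median log2 fold change was 0.58 over the members and 0.01 over all genes.

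APOBEC3B (ENSG00000179750) was counted at 145, 127, 133, 162 and 103 CPM in the untreated libraries. At 7 days it was at 74.7, 84.2, 78.9, 75.4 and 76.3 CPM. The highest 7 day library was below the lowest untreated one, which was replicate 5. The log2 fold change was -0.78 (SE 0.081, edgeR adjusted p = 3.76e-08), a 1.72-fold fall, and the exact two-sided permutation p was 0.00794, the smallest that 5 against 5 libraries can give. Without untreated replicate 5 it was -0.89. With sequencing lane as a factor it was -0.43 and under the threshold on the fold change (edgeR adjusted p = 0.017).

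APOBEC3C (ENSG00000244509) was at 99.7, 103, 103, 100 and 150 CPM in untreated cells. It was at 221, 223, 226, 214 and 211 CPM at 7 days, so every 7 day library was above every untreated one. This was a log2 fold change of 0.98 (SE 0.081, edgeR adjusted p = 1.17e-09, exact permutation p = 0.00794), or 1.97-fold. It was 1.09 without replicate 5 and 0.57 with lane as a factor (edgeR adjusted p = 1.22e-05), called in both.

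APOBEC3H (ENSG00000100298) had 13 to 31 counts per untreated library, or 0.713, 0.858, 0.651, 0.791 and 0.618 CPM. At 7 days it had 124 to 161 counts, or 3.92, 4.53, 4.21, 4.9 and 4.44 CPM. The groups were far apart, and replicate 5 lay near the other untreated libraries for this gene. Its log2 fold change of 2.58 (SE 0.118, edgeR adjusted p = 8.46e-14, exact permutation p = 0.00794), or 5.99-fold, was the largest among the tested members. It was 2.52 without replicate 5 and 2.56 with lane as a factor.

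APOBEC3F (ENSG00000128394), a restriction factor with 2 deaminase domains, was at 17.4, 17.5, 16.8, 16.2 and 24.4 CPM in untreated and at 12.9, 12.4, 12.8, 11.8 and 12.2 CPM in 7 day cells. All 7 day libraries were lower. Its log2 fold change was -0.57 (SE 0.085, edgeR adjusted p = 6.38e-06). Without untreated replicate 5 it was -0.47 (edgeR adjusted p = 3.51e-08), under the threshold on the fold change, and with lane as a factor it was -0.99 (edgeR adjusted p = 2.51e-06), past it.

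APOBEC3D (ENSG00000243811), whose protein also has 2 deaminase domains, was at 4.51, 4.93, 6.15, 4.51 and 5.71 CPM in untreated and at 7.72, 8.08, 7.58, 7.0 and 6.34 CPM in 7 day cells. Every 7 day library was higher, although the nearest values, 6.15 and 6.34 CPM, almost met. The log2 fold change of 0.51 (SE 0.1, edgeR adjusted p = 0.000152) sat at the threshold, and values between 0.34 and 0.59 were obtained under the alternatives tried. With lane as a factor it was 0.34 (edgeR adjusted p = 0.234).

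APOBEC3G (ENSG00000239713), the best known factor against Vif-deficient HIV-1, had 4 to 22 counts per untreated library and 15 to 28 at 7 days. Its levels were 0.356, 0.609, 0.5, 0.428 and 0.19 CPM in untreated and 0.761, 0.69, 0.577, 0.852 and 0.537 CPM in 7 day cells, and the groups overlapped. The log2 fold change was 0.65 (SE 0.218, edgeR adjusted p = 0.0133, exact permutation p = 0.0238). Replicate 5 gave the lowest untreated value, from 4 counts, and without it the change was 0.5 and no longer called. With lane as a factor it was 2.1 (edgeR adjusted p = 0.0135).

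Shortly after irradiation, at 1.5 h, no member passed both thresholds. None of the 6 was called higher or lower by edgeR or by DESeq2, where 3.66% of all tested genes were called (2.08% higher, 1.57% lower). In edgeR 1 member, APOBEC3F, had an unadjusted p under 0.05. Its levels of 14.4, 14.2, 16.5, 15.3 and 15.5 CPM overlapped the untreated range, with a log2 fold change of -0.28 (SE 0.084, edgeR adjusted p = 0.0226, exact permutation p = 0.0159). Its untreated mean rested on replicate 5 (24.4 CPM), and without that library the log2 fold change was -0.17 (edgeR adjusted p = 0.0121). In a fit of only the 2 groups the edgeR adjusted p was 0.195.

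APOBEC3B was at 142, 135, 132, 139 and 145 CPM at 1.5 h, within the untreated range. The log2 difference from untreated was 0.05, with a 95% interval of -0.12 to 0.22. APOBEC3C was at 109, 113, 117, 112 and 114 CPM, again within the untreated range set by replicate 5, with a difference of 0.03 and an interval of -0.14 to 0.19. These values also depended on that library. Without it APOBEC3C differed by 0.15 (edgeR adjusted p = 0.00159) and was higher in all 5 libraries than in the other 4 untreated ones. Against replicate 5 alone on lane 3, it differed by -0.41 and APOBEC3B by 0.4, and APOBEC3F by -0.71. With 1 untreated library in that lane, and one that stands apart for these genes, these are given as values only.

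For the other members at 1.5 h, APOBEC3D was between 4.45 and 5.58 CPM, APOBEC3H between 0.559 and 0.82 CPM and APOBEC3G between 0.34 and 0.478 CPM. The log2 differences from untreated were -0.02 (95% interval -0.23 to 0.19), -0.17 (-0.48 to 0.14) and -0.16 (-0.65 to 0.33). The intervals for APOBEC3H and APOBEC3G are wide, as 4 to 31 counts per library of both groups stood behind them.

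In non-irradiated cells with NFKBIA knockdown, APOBEC3B was lower than in any other group and APOBEC3H was higher than in untreated cells. The other members did not pass the test. Thus 1 of 6 members was called higher and 1 lower, where 12.7% of all tested genes were called (5.18% higher, 7.53% lower). The libraries did not overlap for 3 members, APOBEC3B, APOBEC3F and APOBEC3H, as for 24.1% of all tested genes.

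APOBEC3B was at 59.8, 60.3, 60.3, 54.1 and 55.0 CPM in knockdown cells, all below the lowest untreated value of 103 CPM. On the log2 scale the change was -1.21 (SE 0.082, edgeR adjusted p = 4.11e-10, exact permutation p = 0.00794), a 2.32-fold fall. It was -1.31 without untreated replicate 5 and -0.79 with lane as a factor (edgeR adjusted p = 0.00284), called in both.

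APOBEC3H was at 1.41, 1.67, 1.97, 1.87 and 1.67 CPM, from 47 to 66 counts, and above every untreated library. On the log2 scale the change was 1.23 (SE 0.131, edgeR adjusted p = 2.42e-07, exact permutation p = 0.00794), or 2.34-fold. Without replicate 5 it was 1.17. With lane as a factor it was 0.88 and did not pass (edgeR adjusted p = 0.184). In that fit the groups are linked through single libraries on lanes 3 and 5.

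APOBEC3C was at 99.6, 104, 105, 105 and 106 CPM in knockdown cells, and its log2 difference from untreated was -0.09 with a 95% interval of -0.26 to 0.07. APOBEC3F was at 13.9, 15.0, 15.0, 14.2 and 15.2 CPM, below every untreated library, but the log2 difference of -0.33 (SE 0.084, edgeR adjusted p = 0.00392) was under the threshold on the fold change. With lane as a factor both were called lower, at -0.56 and -0.81. APOBEC3D, between 3.97 and 4.97 CPM, differed by -0.23 (95% interval -0.45 to -0.02, edgeR adjusted p = 0.0786). APOBEC3G, between 0.354 and 0.667 CPM, differed by 0.12 (-0.37 to 0.61), and by 1.43 with lane as a factor (edgeR adjusted p = 0.206).

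**Figure D2:**
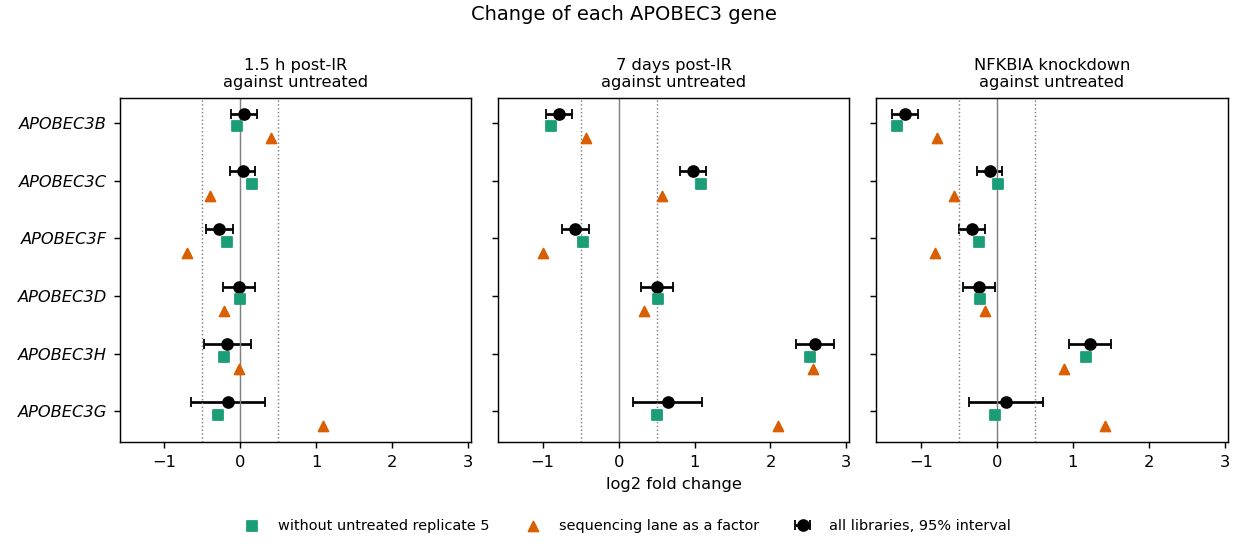
Log2 fold change against untreated cells of 6 APOBEC3 genes, with the 95% interval from the fit of all 20 libraries (black), without untreated replicate 5 (green squares) and with sequencing lane as a factor (orange triangles), and dotted lines at the threshold of 0.5. At 7 days APOBEC3H stayed near 2.5 in all 3 fits, and with the knockdown APOBEC3B stayed below -0.5 in all 3.

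The 7 day and 1.5 h groups, both irradiated with 20 Gy, were also compared with each other, in the same fit of all 20 libraries, in which untreated libraries enter the estimate of the spread but not the difference. Of the 6 members, 4 were higher at 7 days and 1 lower, where 29.3% of all tested genes were called (16.8% higher, 12.6% lower). All 6 had libraries that did not overlap, as had 61.8% of all tested genes. The log2 difference was 2.75 for APOBEC3H (SE 0.118, edgeR adjusted p = 3.83e-14), 0.95 for APOBEC3C (SE 0.081, 1.91e-09) and -0.83 for APOBEC3B (SE 0.081, 1.67e-08). It was 0.81 for APOBEC3G, 0.53 for APOBEC3D and -0.29 for APOBEC3F. The difference for APOBEC3D lay near the threshold of 0.5 and ranged from 0.46 to 0.58 over the alternatives, and it was not called in some of them. Both groups had 2 libraries on lane 4, and within that lane the differences were 2.56, 0.95 and -0.86 for APOBEC3H, APOBEC3C and APOBEC3B, and 0.99, 0.54 and -0.3 for APOBEC3G, APOBEC3D and APOBEC3F. The same 5 members were called within the lane.

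Set against the knockdown, 7 day cells had more of 5 of the 6 members. In this comparison 4 of 6 were called higher (3 by DESeq2, without APOBEC3G) and none lower by either tool, where 25.7% of all tested genes were called (15.8% higher, 9.89% lower). The log2 difference was 1.36 for APOBEC3H (SE 0.104, edgeR adjusted p = 4.26e-10), 1.07 for APOBEC3C (SE 0.081, 3.61e-10), 0.75 for APOBEC3D (SE 0.102, 2.3e-06) and 0.53 for APOBEC3G (SE 0.216, 0.0414). APOBEC3B was higher at 7 days than in knockdown cells in every library, by 0.43 (SE 0.082, edgeR adjusted p = 0.000139), under the threshold on the fold change. APOBEC3F was lower in every library, by -0.24 (SE 0.086, edgeR adjusted p = 0.0214), the 1 member lower at an unadjusted p under 0.05. Thus 5 of the 6 had libraries that did not overlap, as had 60.7% of all tested genes, and APOBEC3G had not. Within lane 5, with 3 libraries of the 7 day and 1 of the knockdown group, APOBEC3H differed by 1.66, APOBEC3C by 1.12, APOBEC3D by 0.48 and APOBEC3G by 0.66. With 1 knockdown library in that lane, these too are given as values only. With lane as a factor, APOBEC3H and APOBEC3C stayed called as higher, while APOBEC3D and APOBEC3G lost the call. That fit called 14.5% of all tested genes higher, and it links the groups through the same knockdown library.

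Between the knockdown and the 1.5 h group, which shared no lane, 1 member was called higher and 1 lower, where 14.1% of all tested genes were called (6.54% higher, 7.6% lower). These were APOBEC3H at 1.4 (SE 0.13, edgeR adjusted p = 2.87e-08) and APOBEC3B at -1.26 (SE 0.082, edgeR adjusted p = 1.36e-10). APOBEC3C was lower in every knockdown library than in any 1.5 h library, yet by only -0.12 on the log2 scale (95% interval -0.29 to 0.05). Libraries also did not overlap for APOBEC3B and APOBEC3H, making 3 of 6 members, as for 43.6% of all tested genes.

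The makeup of the APOBEC3 mRNA pool changed with these differences. APOBEC3B made up 59.5 ± 7.91% of the summed RPKM in untreated cells and 60.7 ± 1.36% at 1.5 h, but 31.8 ± 0.909% at 7 days and 40.6 ± 1.66% in knockdown cells (SD, n = 5). APOBEC3C made up 33.4 ± 6.87%, 33.3 ± 1.08%, 60.2 ± 0.87% and 49.1 ± 1.42% in the same order. At 7 days APOBEC3C therefore led the family, at 77.7 RPKM against 41.1 RPKM for APOBEC3B, and it also led in knockdown cells, at 36.9 against 30.5 RPKM, in every library of both groups. The lead had a different base in each group. At 7 days APOBEC3C was above and APOBEC3B below its untreated level, whereas in knockdown cells APOBEC3B was lower and APOBEC3C did not pass the test. In untreated replicate 5 the levels of APOBEC3B and APOBEC3C were nearly equal (54.1 and 53.1 RPKM), unlike in the other 4 untreated libraries.

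APOBEC3H went from 0.491% of the pool in untreated cells to 2.73% at 7 days and 1.82% in knockdown cells. At 7 days its level of 3.52 ± 0.293 RPKM overlapped those of APOBEC3F (3.83 ± 0.132) and APOBEC3D (2.89 ± 0.269), and in knockdown cells its 1.37 ± 0.173 RPKM overlapped APOBEC3D (1.72 ± 0.207). Summed over all 7 members, which does not depend on how reads were split between them but would miss reads dropped as shared, the family was at 270 ± 13.5 CPM in untreated cells, 273 ± 4.85 at 1.5 h, 322 ± 9.63 at 7 days and 183 ± 3.11 in knockdown cells (SD, n = 5).

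**Figure D3:**
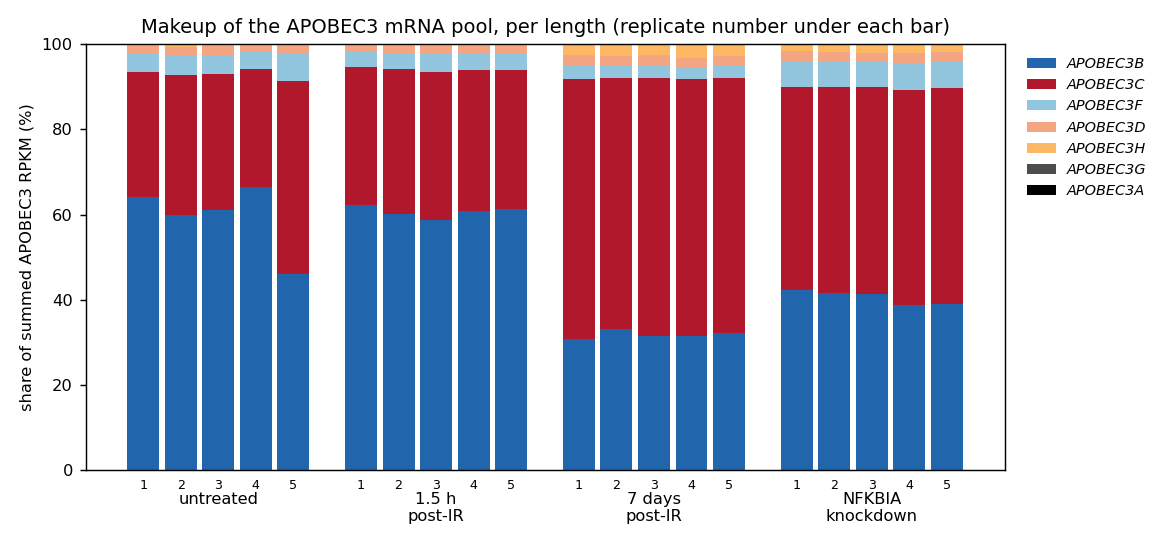
Share of each APOBEC3 gene in the summed APOBEC3 RPKM (percent, stacked to 100) in each of the 20 libraries, with replicate numbers under the bars; APOBEC3G and APOBEC3A are too low to be seen. APOBEC3B makes up most of the pool in the 1.5 h libraries and in untreated replicates 1 to 4, and APOBEC3C most of it at 7 days.

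Genes that act with or around the APOBEC3 enzymes were counted in the same fits. Over all tested genes the median log2 fold change against untreated was 0.01 at 7 days and -0.01 with the knockdown. The test called 16.7% of all tested genes higher and 14.4% lower at 7 days, and 5.18% higher and 7.53% lower with the knockdown, and the count for each list is to be read against these shares. APOBEC1, APOBEC2 and APOBEC4 had no more than 1 count in any library and were not tested. Among 12 tested genes of other nucleic acid and nucleotide deaminases, a list that also holds the dNTP triphosphohydrolase SAMHD1, 2 rose and 1 fell at 7 days, and 1 rose and 1 fell with the knockdown, where 31.1% and 12.7% of all tested genes were called. CDA, the cytidine deaminase of pyrimidine salvage, fell in both (-0.74 and -1.58 on the log2 scale, edgeR adjusted p = 0.00386 and 7.65e-06) and varied widely in untreated cells (15.1 ± 7.84 CPM). AMPD3, an AMP deaminase, rose in both (2.27 and 0.72, edgeR adjusted p = 9.28e-12 and 0.00102).

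Of 14 genes that remove uracil and repair abasic sites, none rose and 3 fell at 7 days, where 16.7% of all tested genes rose and 14.4% fell, and none was called with the knockdown, where 12.7% were called. The list's medians were -0.26 and -0.12. Those that fell were XRCC1, the scaffold of single-strand break repair (-0.78), FEN1, a flap endonuclease (-0.6), and LIG1, a DNA ligase (-0.54), with edgeR adjusted p of 2.41e-08, 2.88e-06 and 8.24e-11. In the knockdown the differences for these genes were -0.25, -0.3 and -0.31. Of 10 translesion polymerases and partners, which copy damaged or abasic templates, POLH rose (0.77) and POLQ fell (-0.7) at 7 days, and POLI rose with the knockdown (0.64), where 31.1% and 12.7% of all tested genes were called. Without untreated replicate 5, 2 fell at 7 days and 2 rose with the knockdown.

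Cell cycle genes known to be repressed by DREAM fell at 7 days in 26 of 30 cases with none rising, with a median of -1.06. In knockdown cells 5 of 30 fell and none rose, with a median of -0.37, and without untreated replicate 5 the count was 3. PLK1, a mitotic kinase, fell in both (-1.57 and -0.63, edgeR adjusted p = 2.12e-12 and 5.65e-06), as did BIRC5, which encodes survivin (-1.27 and -0.59, edgeR adjusted p = 3.76e-11 and 8.96e-06). CENPA, the centromeric histone, fell at 7 days (-1.38, edgeR adjusted p = 5.92e-14) and was at -0.42 with the knockdown. Among 20 subunits of DREAM, MuvB, E2F and RB complexes, 7 fell at 7 days, and 4 fell and 1 rose with the knockdown (3 and none without untreated replicate 5). FOXM1, MYBL2 and E2F2, activators of cell cycle transcription, were among those that fell in both (-1.56 and -0.76, -1.3 and -0.87, -1.49 and -0.6). APOBEC3B was at -0.78 and -1.21 in the same comparisons, which share their untreated libraries. Whether its level followed that of the cell cycle genes was not tested.

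Of 14 NF-κB subunits, kinases and feedback genes, 6 rose at 7 days and none fell, while 4 fell and none rose with the knockdown (3 without untreated replicate 5). One of the 4 was NFKBIA, the target of the shRNA, whose fall the design fixed. BIRC3, an apoptosis inhibitor, rose by 1.66 at 7 days and fell by 0.72 on the log2 scale with the knockdown (edgeR adjusted p = 3.45e-13 and 8.45e-07). RELB, the subunit of the non-canonical pathway, rose by 0.66 and fell by 0.51 (edgeR adjusted p = 4.86e-05 and 0.00182), and TNFAIP3, a feedback inhibitor, rose by 0.55 and fell by 0.52 (edgeR adjusted p = 3.02e-05 and 0.000203). APOBEC3B was lower in both groups, and a link between it and these genes was not tested. Of 21 targets of p53, 20 rose at 7 days (median 1.17), among them CDKN1A (1.86, edgeR adjusted p = 6.38e-17), and 15 had risen at 1.5 h (median 1.03), where 2.08% of all tested genes rose. With the knockdown 2 rose (1 without untreated replicate 5), GDF15 (1.54) and RRM2B (0.53).

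Of 20 factors against retroviruses and retroelements, 5 rose and 3 fell at 7 days, where 16.7% of all tested genes rose and 14.4% fell, with a median of 0.09, and 1 rose with the knockdown (2 without untreated replicate 5). BST2, which tethers virions, rose in both (1.1 and 1.23, edgeR adjusted p = 1.69e-05 and 1.15e-05), from 0.744 ± 0.139 CPM. SERINC5, which lowers virion infectivity, rose at 7 days (1.06), and TRIM28, a silencer of retroelements, fell (-0.74). Of 24 interferon-stimulated genes, 12 rose and 1 fell at 7 days (median 0.5), and 7 rose with the knockdown (median 0.2), where 5.18% of all tested genes rose. RSAD2 went from 0.0592 ± 0.052 to 1.26 ± 0.212 CPM and OAS1 from 0.752 ± 0.256 to 4.04 ± 0.267 CPM at 7 days (edgeR adjusted p = 6.9e-10 and 1.49e-10). With the knockdown IFI44 (1.47) and IFIT2 (1.15) rose, RSAD2 was at 0.04 and OAS2 at -0.61, and neither of the last 2 was called. IFIT1 fell at 7 days (-0.99, edgeR adjusted p = 5.58e-09). Of 13 genes of the senescence-associated secretory phenotype (SASP), 10 rose at 7 days (median 2.08), and 2 rose and 3 fell with the knockdown (1 and 3 without untreated replicate 5).

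**Figure D4:**
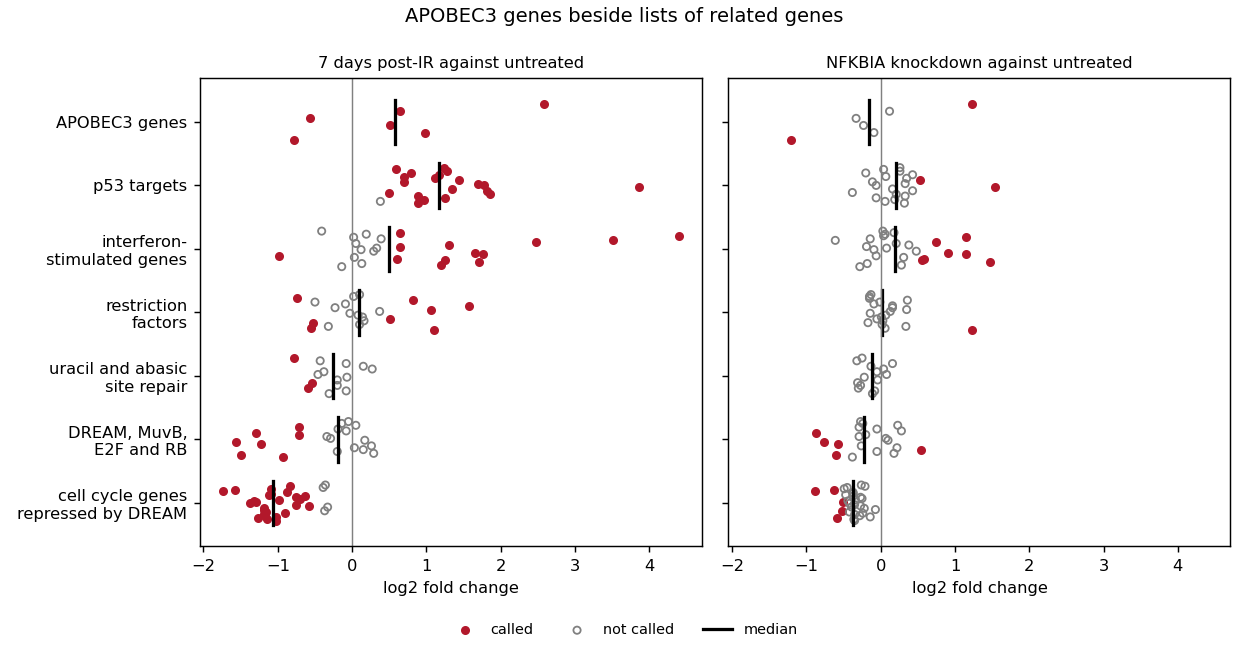
Log2 fold change against untreated cells of each tested gene in 7 lists, at 7 days post-IR (left) and with NFKBIA knockdown (right), with called genes in red, genes not called as open circles and the list median as a vertical line. The APOBEC3 genes spread on both sides of 0 in both comparisons, while all 30 cell cycle genes repressed by DREAM lie below 0 in both, with medians of -1.06 and -0.37.

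Of 12 tested neighbours of the cluster on chromosome 22, 3 fell and none rose at 7 days, where 14.4% of all tested genes fell and 16.7% rose. With the knockdown 1 fell (2 without untreated replicate 5), where 7.53% of all tested genes fell. CBX6 and CBX7, Polycomb subunits on either side of the cluster, differed from untreated by -0.1 and -0.01 at 7 days and by -0.29 and -0.02 with the knockdown, and neither was called. PDGFB, a growth factor gene beyond CBX7, fell in both (-1.73 and -1.53, edgeR adjusted p = 6.61e-12 and 3.18e-10).

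Markers of other cell types were followed because APOBEC3G and APOBEC3H are known for expression in lymphoid cells. The 16 lymphoid, myeloid and endothelial markers in the table summed to 5.89 to 10.7 CPM in untreated libraries, 5.68 to 7.55 at 1.5 h, 15.3 to 16.4 at 7 days and 6.67 to 7.62 with the knockdown. Of the 6 tested markers, 2 rose and 1 fell at 7 days, and 1 rose and 2 fell with the knockdown, where 31.1% and 12.7% of all tested genes were called. CD3D, a subunit of the T cell receptor complex, went from 1.07 ± 0.183 to 4.86 ± 0.609 CPM at 7 days and 3.48 ± 0.511 CPM with the knockdown. CD3E, another subunit of that complex, and the T cell marker CD2 had no more than 12 and 3 counts in any library and were not tested. GZMB and CD14, also on the list and not tested, reached 37 and 14 counts in a library. ITGAM, an integrin of myeloid cells, was at 2.17 ± 0.55 CPM in untreated, 5.95 ± 0.245 CPM in 7 day and 1.25 ± 0.237 CPM in knockdown cells, and rose and fell respectively. CD79A, a subunit of the B cell receptor complex, fell from 0.471 ± 0.162 to 0.228 ± 0.0779 CPM at 7 days. PTPRC, which encodes the common leukocyte antigen, was at 1.05 ± 0.331 CPM in untreated, 1.34 ± 0.233 CPM in 7 day and 0.346 ± 0.137 CPM in knockdown cells. Their part in the APOBEC3H and APOBEC3G values was not tested. Of 8 tested osteoblast lineage markers, 2 rose and 1 fell at 7 days and 2 fell with the knockdown, with COL1A1, a collagen gene, at 1974 ± 247 CPM in untreated and 617 ± 35.8 CPM in knockdown cells.

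For each member at 1 CPM or more on average, the tested genes with the most similar profile were found by Pearson's r of log2 CPM over the 20 libraries, which fall into 4 groups and share lanes. For APOBEC3B these were ACAT2 (r = 0.985), PGRMC1 (0.982) and ERLIN1 (0.98), of which ACAT2 makes acetoacetyl-CoA for sterol synthesis. ACAT2 was at 92.6, 93.9, 54.8 and 42.0 CPM in untreated, 1.5 h, 7 day and knockdown cells. For APOBEC3C they were CD44, a hyaluronan receptor (0.99), SPOCK1 (0.989) and PCDH17 (0.987), with CD44 at 253, 246, 766 and 206 CPM. For APOBEC3H they were CTSA (0.987), GRN (0.985) and CTSB, a lysosomal protease (0.985), with CTSB at 825, 808, 3586 and 1968 CPM. For APOBEC3F they were SYNPO (0.97), RHNO1 (0.969) and ZNF362 (0.963), and for APOBEC3D CASK (0.93), SFMBT2 (0.923) and EPHA4 (0.918). Within the family, r was -0.261 between APOBEC3B and APOBEC3C, 0.87 between APOBEC3C and APOBEC3D and -0.702 between APOBEC3B and APOBEC3H.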

How the data were processed

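U2-OS RNA was extracted with Trizol in quintuplicates, and stranded mRNA libraries were sequenced as single reads of 100 bases on an Illumina HiSeq. The submitters' processing notes name bcl2fastq, Trimmomatic, STAR 2.4.2a and hg19. The counter, annotation and strand setting are not given in the sources used here. The authors deposited 1 table of raw counts per gene for all 20 libraries, with gene length as another column. Of 20314 genes, 1679 had no symbol and 1217 had 0 counts throughout. Samples were grouped by their labels, and lanes were read from the labels' library names.

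The counts were fitted with edgeR 4.0.16 (R 4.3.3), TMM factors, filterByExpr (minimum count 10) and the quasi-likelihood test, in 1 model of 4 groups without covariate, over 14992 genes, with Benjamini-Hochberg adjustment. SE and 95% intervals come from that test. CPM used TMM library sizes, and RPKM divides by the deposited length. Exact two-sided permutation tests of single genes used log2 CPM with a prior count of 2. Of 6 comparisons, 3 share the untreated libraries. The code was tested on simulated data. Alternatives were DESeq2 1.42.0, other scaling factors and filters, no fold threshold, fits of 2 groups, a lane factor, single lanes, a replicate block and leaving out each library. Fits within lanes 3 and 5 were chosen after seeing the data. Members and gene lists were chosen with earlier results of these data known. Named were all members, at most 3 called genes of largest change per list and direction, NFKBIA and the 3 most similar genes per member. CBX6, CBX7 and APOBEC1, APOBEC2 and APOBEC4, and members of the lists given with values only, were named after their values were seen. Sequences were read from GENCODE 29 transcripts and the RefSeq promoter table (GRCh38.p14), not the build of the counts, and no coordinates were converted.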

Additional observations from a re-analysis of the deposited data

Results flagged for a closer look

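Outlying libraries were looked for in 24 sets of 5 libraries (6 members in 4 groups) with Dixon's critical value of 0.71, which chance exceeds in about 1 of 20 sets, and 3 were found. APOBEC3C was at 150 CPM in untreated replicate 5, against 99.7 to 103 CPM in the other untreated libraries. APOBEC3F was at 24.4 CPM in the same library, against 16.2 to 17.5 CPM. APOBEC3C was at 99.6 CPM in knockdown replicate 1, against 104 to 106 CPM in the other 4, a gap of under 5 CPM.

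The effects of irradiation at 7 days and at 1.5 h differed from each other by over 0.5 on the log2 scale for 5 members in edgeR, with Benjamini-Hochberg adjustment over all genes, and APOBEC3F differed by less (-0.29, adjusted p = 0.00572). The difference of the log2 fold changes was -0.83 for APOBEC3B (adjusted p = 1.67e-08), 0.95 for APOBEC3C (1.91e-09), 0.53 for APOBEC3D (9.29e-05), 0.81 for APOBEC3G (0.003) and 2.75 for APOBEC3H (3.83e-14). The untreated libraries cancel in these differences, though they enter the estimate of the spread. These differences are therefore the same tests as 7 days against 1.5 h above, not further results. In each of the 5, all libraries of one group lay beyond all of the other, as in 61.8% of all tested genes. Of all tested genes, 29.3% were called in this comparison.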

How the results depend on the processing

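Of 732 fold changes of members recomputed under alternatives to the 36 reported ones, 673 kept direction and call, 33 lost the call, 9 gained it and 17 changed sign, all 17 for differences that had not been called. With lane as a factor, the members called lower went from 0 to 1 at 1.5 h and from 2 to 1 at 7 days. With the knockdown they went from 1 to 3, with 0 called higher, and between 7 days and knockdown 2 were called higher. APOBEC3D also lost its call as higher at 7 days in that fit (0.34, edgeR adjusted p = 0.234). Over all tested genes that fit called 25.5% at 1.5 h, 41.3% at 7 days, 27.3% with the knockdown and 23.6% between 7 days and knockdown, against 3.66, 31.1, 12.7 and 25.7% in the reported fit. Fits within lane 3 (1 member lower at 1.5 h) and lane 5 (2 higher at 7 days against knockdown), each with 24.9% of all genes called, have 1 library in an arm, whose spread is assumed, and support no call. The lane-factor values rest on untreated replicate 5 wherever untreated cells enter; the cause was not tested. Without untreated replicate 5, 3 members were called higher and 1 lower at 7 days, where 16.4% and 14.2% of all tested genes were. Over all libraries left out in turn, 1 to 2 members were called lower at 7 days, where 14.2 to 15.5% of all tested genes were. With no threshold on the fold, the members called lower were 1 at 1.5 h, 2 with the knockdown, 2 at 7 days against 1.5 h and 1 at 7 days against knockdown, where 10.2, 21.1, 28.9 and 27.7% of all tested genes were lower. By library size alone the summed family was at 187 CPM in knockdown cells.

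Signs changed at 1.5 h for APOBEC3C (-0.4 with lane, -0.41 within lane 3, -0.02 to -0.01 without untreated replicate 4 or 1), APOBEC3G (1.09 with lane and within lane 3, 0.01 without untreated replicate 2), APOBEC3B (-0.04 without untreated replicate 5) and APOBEC3D (0.0 by library size alone, with only the 2 groups compared and without untreated replicate 5, 0.03 without 1.5 h replicate 1, 0.06 without untreated replicate 3). Leaving out each library in turn gave -0.04 to 0.11 for APOBEC3B, -0.02 to 0.15 for APOBEC3C, -0.08 to 0.06 for APOBEC3D and -0.29 to 0.01 for APOBEC3G at 1.5 h. Signs changed with the knockdown against untreated for APOBEC3C (0.02 without untreated replicate 5, -0.15 to 0.02 over all left out) and APOBEC3G (-0.03 without that library, -0.04 without knockdown replicate 2, -0.04 to 0.29 over all left out), and against 1.5 h for APOBEC3D (0.07 with lane). APOBEC3D at 7 days was at 0.5 with DESeq2 and RLE factors, 0.49 with only the 2 groups and 0.47 with no filter, and at 0.44 to 0.59 without single libraries. APOBEC3G at 7 days against knockdown had an adjusted p of 0.0708 with DESeq2, and requiring 10 counts in every library gave no value for it.

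With replicate number as a block, 0 of 36 calls changed (APOBEC3B at 7 days stayed at -0.78 and APOBEC3H at 2.58). Deviations of same-numbered libraries correlated between -0.254 and 0.123, and the labels give no pairing. Depth limits APOBEC3A and APOBEC3G, at no more than 2 and 28 counts per library.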
